A study of Glycine max with 12 samples.

Results

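Seedling-preferred genes are gene models of soybean (Glycine max) picked for their reads in a library of whole seedlings. Those reads were far more frequent there than in any of the 9 other libraries with counts. They were chosen by the measured CPM of the 10 libraries with counts, where CPM is the count of a gene model scaled to the same total in every library. A gene model was included when its seedling value was at least 10 CPM and at least 4 times the highest of the 9 other libraries with counts. Counts under 3 in those 9 libraries were set to 3, so that a ratio never rested on fewer reads than that. Of 66210 gene models, 196 were included. Glyma08g21410 and Glyma07g01730 were left out by the rule, although Glyma08g21410 passed both thresholds. With it, 0.298% of all gene models passed, and 1.07% of the 18490 gene models with at least 10 CPM in the seedling. Because these values chose the genes, the gap between the seedling and the other libraries is a description and no test was made of it.

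All libraries came from cultivar Williams 82 grown in a greenhouse, with 1 library for each stage or organ, made from poly-A RNA and read as single-end 76-base reads. The seedling library came from whole seedlings 7 to 10 cm long, taken 6 days after the seeds were imbibed. It was set against whole seeds of 4 developmental stages (globular at 0.8 to 1.1 mm, heart at 2 to 2.5 mm, cotyledon at 3 to 3.9 mm and early maturation at 6 to 7 mm in length), dry seeds of about 200 mg, trifoliate leaves, roots without nodules and stem internodes of mature plants 3 to 4 months old, and unopened floral buds. The mid-maturation (1.1 to 1.3 cm) and late-maturation (1.2 to 1.5 cm) seed libraries have RPKM only, took no part in the choice of genes and are used below as data outside the rule. The seedling library held 18581576 counts and the other 9 between 10296612 (stem) and 45726019 (globular). A count of 3 equals 0.161 CPM in the seedling and between 0.0656 CPM (globular) and 0.291 CPM (stem) in the others. The labels do not say how many plants went into a library, and no group has a second library, so differences below could not be set against a spread between replicates, and p-values were not computed. Intervals of ratios and of the share of counts are exact 95% intervals for counting error only. Those drawn for shares of genes treat genes as independent draws, which they are not, and measure no spread between plants. In such bulk tissue, fewer cells of a type and less RNA per cell cannot be told apart.

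A seedling of this age draws on the protein and oil stored in its cotyledons while its hypocotyl lengthens, its root branches and its first green leaves expand, so that organs at different points of development share one sample. A gene that is active for a short time after germination can therefore stand out against both seeds and mature organs. Soybean descends from an ancient polyploid and also carries many tandem copies, which are related genes that lie side by side on a chromosome. The files give no names or functions: none of the 74818 identifiers in the files matched the annotation table used here, so the genes are called by their identifiers, no role is given to any of them, and no gene family is named. In these identifiers the chromosome number stands ahead of the letter g, and the numbers behind it follow the order of gene models along it. Whether seedling markers of known function behave accordingly could not be checked without names.

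Most of the 196 genes were modest in read share and a few were very abundant. The median was 32.7 CPM in the seedling, with quartiles of 16.9 and 120 CPM. Of the 196 genes, 66 lay under 20 CPM, 55 reached 100 CPM and 5 reached 1000 CPM. Together they took 2.57% of the seedling counts (2.57 to 2.58%), and the 10 most abundant of them held 38.1% of that amount. In the other libraries the same genes took between 0.0401% (globular seed) and 0.183% (stem) of the counts. The organs of the plant lay above the seeds in this sum: stem, root, floral bud and leaf had 1831, 1686, 1601 and 1435 CPM over all 196 genes, while early maturation, cotyledon, dry, heart and globular seed had 913, 644, 551, 536 and 401 CPM. CPM is not corrected for gene length, so an order by CPM is an order by share of reads and not by number of transcripts.

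The ratio of the seedling to the highest other library had a median of 6.41 and quartiles of 5.06 and 9.83, and 17 genes exceeded 20. The genes lie close above the 4-fold line for the most part, as the plot of seedling level against the highest other library shows. For 38 of the 196 genes the counting interval of the ratio reached below 4, and for 39 gene models that were not included it reached 4 or more. Just inside the fold threshold were Glyma16g07750 (ratio 4.00), Glyma08g01360 (4.03) and Glyma17g14920 (4.04). Just outside were Glyma01g41000 (3.99), Glyma17g16020 (3.97) and Glyma15g39770 (3.93). Just inside the level threshold were Glyma19g34150 (10.3 CPM in the seedling), Glyma02g01850 (10.3) and Glyma09g26550 (10.3), and just outside were Glyma12g12380 (9.79), Glyma10g06360 (9.74) and Glyma08g04670 (9.74). The number of genes rested on 2 libraries more than on the rest: without the root library 470 genes would have been included, and without the leaf library 341. Leaving out any one of the other 7 gave 197 to 250.

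**Figure D1:**
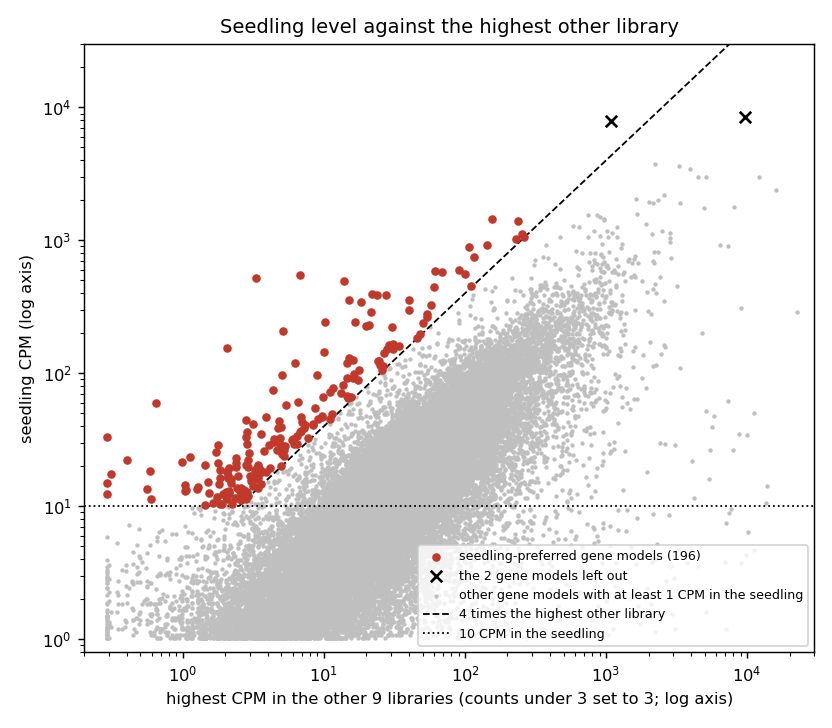
Seedling CPM (vertical, log axis) against the highest CPM of the other 9 libraries (horizontal, log axis, counts under 3 set to 3) for gene models with at least 1 CPM in the seedling. Red points are the 196 seedling-preferred genes, which lie above the 4-fold dashed line and the 10 CPM dotted line because these lines chose them, and crosses are the 2 gene models left out by the rule.

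The 2 gene models left out were the most abundant of those named here and differed from each other. Glyma08g21410 had 7854 CPM in the seedling, against 1090 CPM in stem, its next library. Glyma07g01730 had 8398 CPM in the seedling, against 9731 CPM in leaf, so that it was not highest in the seedling and would not have passed.

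The 10 genes with the highest seedling CPM differed widely in where else they were found. Glyma03g28850 on chromosome 3 led with 1454 CPM in the seedling. In the other libraries it had 0.0656 CPM in globular seed, 0 in heart, 0.0397 in cotyledon-stage seed, 10.4 at early maturation, 0.325 in dry seed, 29.3 in leaf, 60.5 in root, 155 in stem and 36.3 in floral bud. It was thus nearly absent from 4 of the 5 seed libraries and present in every organ, and its seedling level was 9.39 times that of stem (8.93 to 9.88).

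Glyma09g33650 on chromosome 9 had 1398 CPM in the seedling, against 24.2 CPM in globular, 35.3 in heart and 28.1 in cotyledon-stage seed, 87.3 at early maturation, 1.58 in dry seed, 7.15 in leaf, 238 in root, 202 in stem and 25.9 in floral bud. Glyma16g07750 on chromosome 16 had 1052 CPM in the seedling, against 263 CPM in root, 191 in stem and at most 18.5 in the other 7. Root and stem were the next libraries for both genes. Glyma09g15450, also on chromosome 9, had 602 CPM in the seedling, against 90.2 in root, 16.1 in floral bud, 12.6 in stem, 7.45 in leaf and at most 0.636 in any seed library.

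Leaf was the next library for 3 of the 10. Glyma06g38160 on chromosome 6 had 1116 CPM in the seedling, against 253 CPM in leaf, 175 in floral bud, 132 at early maturation, 88.9 in stem, 4.11 in root and 1.77 in dry seed. Glyma03g03270 on chromosome 3 had 752 CPM in the seedling, against 116 CPM in leaf, 8.55 in floral bud, 1.54 in root, 0.583 in stem and at most 0.0930 in any seed library. Glyma12g36100 on chromosome 12 was spread more evenly: it had 584 CPM in the seedling and between 10.6 (dry seed) and 61.0 CPM (leaf) in all 9 others. Outside seedling and leaf, Glyma03g03270 thus stayed under 10 CPM, whereas Glyma12g36100 exceeded 10 CPM in every library.

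The remaining 3 of the 10 had floral bud, stem or dry seed next. Glyma13g39600 on chromosome 13 had 1021 CPM in the seedling, against 229 CPM in floral bud, 222 in leaf and at most 56.4 in the other 7, so that bud and leaf were close to even. Glyma02g03280 on chromosome 2 had 931 CPM in the seedling, against 144 CPM in stem and at most 28.7 in the other 8. Glyma03g04960 on chromosome 3 followed the seeds: it had 891 CPM in the seedling, against 0.525 CPM in globular, 2.86 in heart and 19.1 in cotyledon-stage seed, 87.5 at early maturation and 106 in dry seed. It had 49.3 CPM in floral bud and at most 0.291 CPM in leaf, root and stem. Among the 10 most abundant genes it alone had a seed library next, at 8.37 times less than the seedling (8.01 to 8.75).

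**Figure D2:**
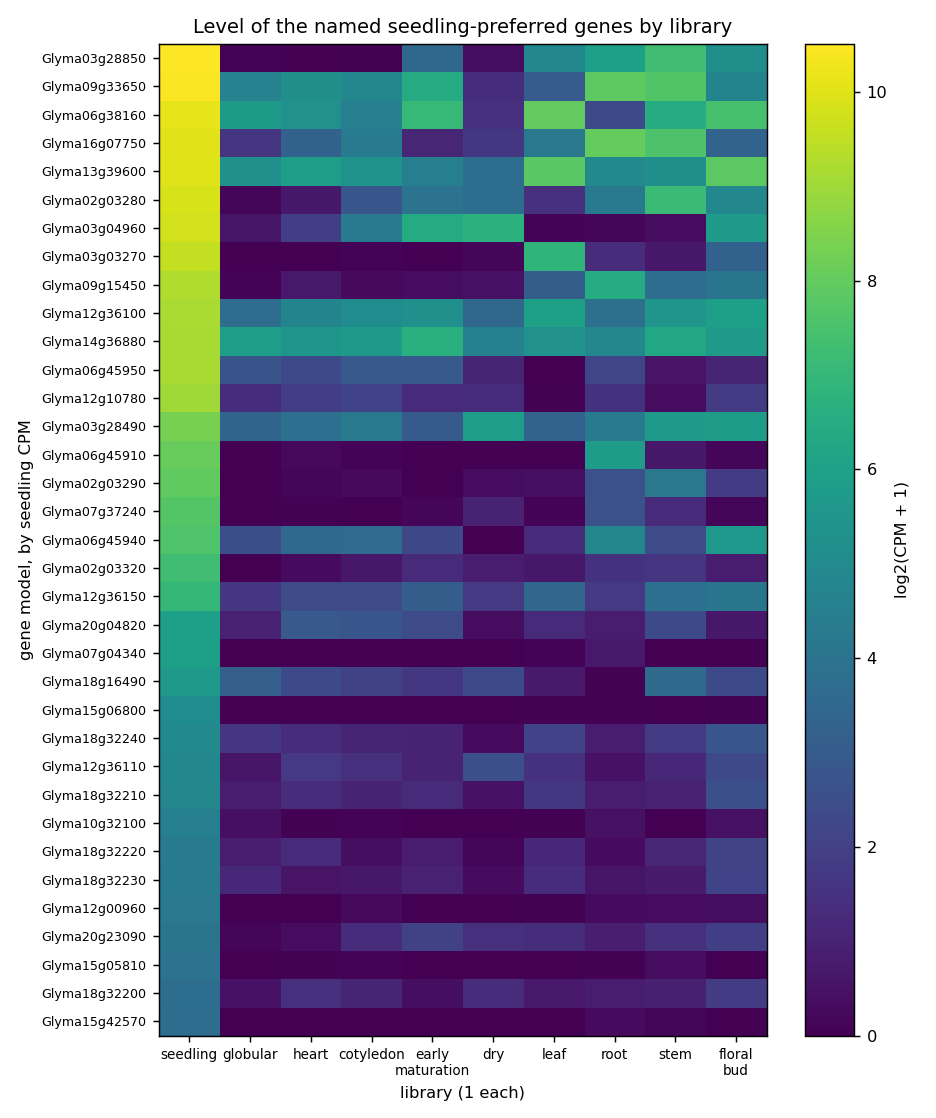
Level of 35 named seedling-preferred genes, as log2(CPM + 1) by colour, in the 10 libraries with counts (1 column each, seedling at the left), ordered by seedling CPM. The seedling column is highest in every row because the rule chose such genes, while the second-brightest column changes from row to row, from stem in Glyma03g28850 to dry seed in Glyma03g04960.

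The genes with the largest ratios were of another kind, since most of them had few reads outside the seedling. Glyma12g10780 on chromosome 12 had the largest, with 520 CPM in the seedling, against a lowest value of 0.0428 (leaf), a median of 1.60 and a highest of 3.29 CPM (cotyledon-stage seed) in the other 9. Its seedling level was 158 times the highest other (127 to 198). Glyma06g45950 on chromosome 6 had 554 CPM in the seedling, against 0 (leaf), a median of 3.52 and a highest of 6.73 CPM (early maturation), a ratio of 82.3 (72.7 to 93.5). Glyma02g03320 on chromosome 2 had 156 CPM in the seedling, against 0 (globular), a median of 0.790 and a highest of 2.04 CPM (stem), a ratio of 76.6. These 3 genes exceeded 100 CPM in the seedling and stayed at or under 6.73 CPM in every other library.

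Glyma15g06800 on chromosome 15 was the only one of the 196 with fewer than 3 counts in each of the other 9 libraries. It had 614 counts in the seedling (33.0 CPM), 1 count each in leaf, root and floral bud, and 0 in the other 6. Against 3 counts in stem, the shallowest library, its ratio was 113, and against the single count in root it was 667 with an interval of 119 to 26371, so that its size is hardly known. Glyma07g04340 on chromosome 7 had 1108 counts in the seedling (59.6 CPM), 13 in root, 2 in leaf and 0 in the other 7, a ratio of 92.5 (53.9 to 174). Glyma12g00960, Glyma10g32100, Glyma15g05810 and Glyma15g42570 had 12.4 to 22.4 CPM in the seedling and at most 0.403 CPM in any other library. Glyma07g37240 had 206 CPM in the seedling and 5.11 CPM in root, its next library. For Glyma15g06800 and Glyma15g42570 the ratio used for inclusion rested on the floor of 3 counts in stem, which limits how large it could be.

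Breadth varied as much as level. At 3 counts or more, 81 genes were found in all 9 other libraries and 12 in at most 1. At 1 CPM or more, 20 of the 196 genes (10.2%) were found in all 9 others, against 75% of all gene models with at least 10 CPM in the seedling. In all 5 seed libraries with counts, 77 genes (39.3%) stayed under 1 CPM, against 3.08% of the same background. In all 9 others, 10 genes (5.10%) stayed under 1 CPM, against 0.0541% of the background, and any gene model of this kind with 10 CPM in the seedling passes the rule. The rule caps every other library relative to the seedling, so these shares are set in part or whole by the choice of genes, and nothing more is read from them. Counts of 0 were found for 11 genes in root, 13 in floral bud, 17 in stem and 21 in leaf, and for 34 to 42 genes in each of the 5 seed libraries, whose depths differ as given above.

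The second-highest library was usually an organ rather than a seed stage. Root was second for 53 genes (27.0%), floral bud for 38 (19.4%), leaf for 36 (18.4%) and stem for 32 (16.3%). A seed library was second for 36 genes (18.4%): dry seed for 15, cotyledon-stage and early-maturation seed for 9 each, heart for 3 and globular seed for none of the 196. Over the other 18294 gene models with at least 10 CPM in the seedling, a seed library was the highest of the same 9 for 48.0%, with dry seed at 17.0%, globular at 11.5% and root at 14.5%. The 196 genes were chosen by a cap on each of these 9 libraries relative to the seedling. Their shares, and the gap to the other gene models, are therefore set in part by that choice and were not tested. The order among the organs is soft for many genes: the second-highest library exceeded the next by a median of 1.47 times over the 184 genes that had both, and by at least 2 times for 59. Under TMM scaling the seed libraries were second for 47 of 190 genes, with dry seed at 23, and under DESeq2 size factors for 43 of 191. Root stayed the most frequent under both, but floral bud fell behind leaf and stem: under TMM it was second for 25 genes, against 34 for leaf and 33 for stem, and under DESeq2 size factors for 28, against 34 for leaf and 37 for stem.

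**Figure D3:**
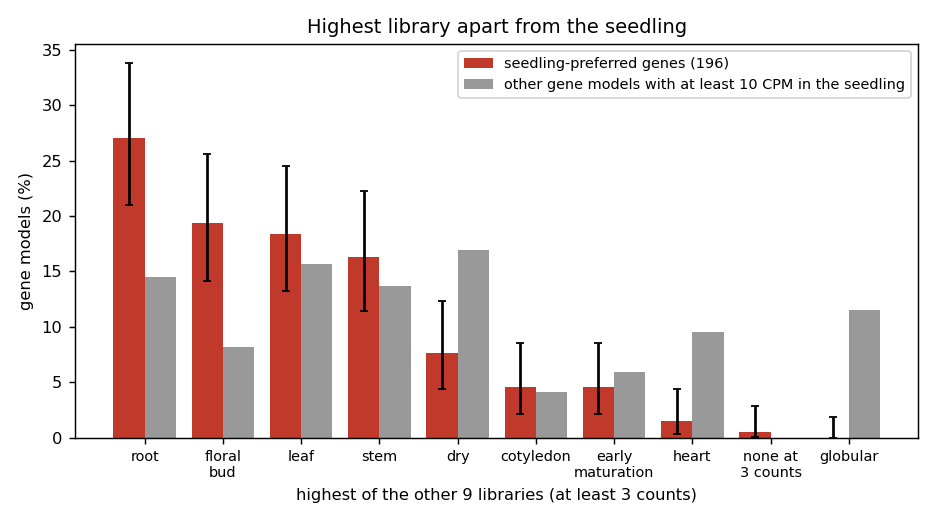
Percent of gene models (vertical) whose highest library apart from the seedling was the one named (horizontal), for the 196 seedling-preferred genes (red) and for the other gene models with at least 10 CPM in the seedling (grey). Error bars are exact 95% binomial intervals that treat the genes as independent draws, which they are not. They measure no spread between plants. Root leads among the seedling-preferred genes at 27.0%, and globular seed, at 11.5% of the background, is second for none of them. The rule capped all of these libraries for the red genes, so the red shares are set in part by the choice of genes.

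The 15 genes with dry seed as second had a median of 41.8 CPM in the seedling and 4.93 CPM in dry seed. Besides Glyma03g04960, the most abundant of them, Glyma03g28490 on chromosome 3 had 329 CPM in the seedling, 57.1 in dry seed, 53.1 in floral bud, 49.4 in stem and 6.78 at early maturation. Its dry-seed level was thus close to those of floral bud and stem. Among the genes with a developing seed next, Glyma14g36880 on chromosome 14 had 555 CPM in the seedling, against a highest of 100.3 CPM (early maturation), a median of 48.9 and a lowest of 23.8 (dry seed) in the other 9. Glyma20g04820 on chromosome 20 led the 3 genes with heart-stage seed next, with 60.7 CPM in the seedling, 6.54 in heart and 6.11 in cotyledon-stage seed.

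The same rule was applied to each other library for comparison, and the seedling set was neither the largest nor the smallest. It held 196 genes, against 859 for dry seed, 485 for root and 379 for floral bud. The stem set held 210 genes and the leaf set 109, with 93 for early maturation, 23 for globular, 9 for heart and 4 for cotyledon-stage seed. In the seedling, the summed level was 9810 CPM for the dry-preferred, 5997 for the root-preferred, 5285 for the leaf-preferred, 1966 for the stem-preferred and 646 for the floral-bud-preferred genes. The sums were 644 CPM for the early-maturation-preferred genes and at most 30.6 CPM for the other 3 sets. In their own libraries, the dry-, root-, leaf-, stem- and floral-bud-preferred genes summed to 343971, 52448, 33296, 22849 and 31347 CPM. Their median levels in the seedling were 4.47, 3.82, 4.95, 2.58 and 0.161 CPM, in the same order. The sums in the seedling thus depend on the size of each set and do not rank the sets by level per gene. The seedling was the second-highest library for 312 of the 485 root-preferred genes (64.3%) and 49 of the 109 leaf-preferred genes (45.0%). It was second for 160 of the 859 dry-preferred (18.6%), 42 of the 210 stem-preferred and 44 of the 379 floral-bud-preferred genes. These counts describe single libraries, and whether they differ between sets was not tested.

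Contrasts between 2 other libraries do not use the seedling, although the rule caps the levels that enter them. A gene was called where the libraries differed at least 4-fold and the higher had at least 10 CPM. In leaf against root, 47 of the 196 genes reached 10 CPM in either. Of the 47, 15 were higher in leaf (31.9%) and 23 lower (48.9%), where 14.5% and 19% of all gene models at 10 CPM in either were called. Genes were thus called on both sides. More lay on the root side, as was also the case over all gene models. Glyma03g03270 had 116 CPM in leaf and 1.54 in root, 75.5-fold (53.1 to 111), and Glyma06g38160 253 and 4.11 CPM, 61.6-fold (49.6 to 77.4). Glyma06g45910 on chromosome 6 had 0 counts in leaf and 1090 counts (54.0 CPM) in root. By the exact interval it was at least 341-fold lower in leaf. Glyma01g42670 on chromosome 1 had 0.257 CPM in leaf and 54.0 CPM in root.

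In stem against root, 13 of 49 genes at 10 CPM were called higher (26.5%) and 9 lower (18.4%), where the background was 5.79% and 6.57%. With counts under 3 set to 3, the largest differences on the higher side were those of Glyma18g16490 on chromosome 18, with 11.5 CPM in stem and 1 count in root, and of Glyma18g05890, with 113 counts in stem and 3 counts in root. On the lower side, Glyma06g45910 had 0.583 CPM in stem and 54.0 in root, and Glyma17g14920 on chromosome 17 had 3.98 and 45.8 CPM. In floral bud against leaf, 7 of 38 genes were higher (18.4%) and 2 lower (5.26%), against a background of 8.96% and 4.16%. Glyma03g04960 had 49.3 CPM in floral bud and 2 counts in leaf, and Glyma01g42670 11.2 and 0.257 CPM. Glyma03g03270 had 8.55 CPM in floral bud and 116 in leaf, and Glyma08g11330 on chromosome 8 had 2.85 and 16.5 CPM.

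In dry against early-maturation seed, 3 of 23 genes at 10 CPM were higher (13.0%) and 12 lower (52.2%), against a background of 12.9% and 33.8%. Glyma02g11610 on chromosome 2 had 20.2 CPM in dry seed and 2.02 at early maturation (10.0-fold, 7.86 to 13.0), and Glyma03g28490 57.1 and 6.78 CPM (8.43-fold, 7.36 to 9.67). Glyma02g18090, also on chromosome 2, had 1 count in dry seed and 18.3 CPM at early maturation. Glyma07g39540 on chromosome 7 had 0.232 CPM in dry seed and 29.1 at early maturation (125-fold, 53.4 to 386). The calls depended on the scaling. Under TMM 7 genes were higher and 9 lower, and under DESeq2 size factors 10 were higher and 9 lower. Both scalings raise the dry library. The surplus of lower calls is therefore not read as a result, and the background was counted with plain CPM only.

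The mid- and late-maturation libraries played no part in choosing the genes, but early-maturation and dry seed, the stages before and after them, did. Of the 196 genes, 114 were listed in at least 1 of these 2 libraries, 107 in late and 97 in mid maturation, and 82 in neither. Absence is hard to read, because these files list only values above 0 and use another set of gene models. All files together hold 74818 identifiers, the count files 66210 and these 2 files 44202, so many gene models with counts are unlisted. Of 8995 gene models with at least 10 CPM in both early-maturation and dry seed, 7.38% were not listed. Among the 82 unlisted genes, 54 had at least 10 counts in one of those 2 libraries. The number 82 is therefore not read as a result about these genes. Most of the 114 were low. Their median was 0.232 RPKM in late and 0.168 RPKM in mid maturation, against 1.21 and 1.59 RPKM over all 44202 gene models listed. These 44202 include gene models absent from the count files, which could not have been among the 196. At 5 RPKM or more in either library stood 18 of the 114 (15.8%), against 35.9% of all. The rule caps early-maturation and dry seed relative to the seedling. Low values at the stages between them may therefore follow from the choice of genes, and nothing more is read from these gaps.

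In late against mid maturation, compared as log2(RPKM + 0.5), 9 of the 18 genes were called higher and 5 lower, where a call asked for a 4-fold difference and 5 RPKM in whichever library was higher. Over all 15888 gene models listed with 5 RPKM in either library, in the count files or not, 18% were called higher and 12.1% lower. Glyma09g01900 on chromosome 9 had 28.1 RPKM in late maturation and was not listed in mid maturation, and it had 9.99 CPM in dry seed and 144 in the seedling. Glyma06g05280 on chromosome 6 had 17.8 RPKM in late and 0.221 in mid maturation. Glyma18g16490 had 42.6 RPKM in late and 2.27 in mid maturation, and Glyma03g28490 33.8 and 6.05 RPKM. On the lower side, Glyma06g38160 had 0.244 RPKM in late and 33.6 in mid maturation, and Glyma07g39540 0.0108 and 10.5 RPKM. Both were also among the 12 called lower in dry against early-maturation seed. Glyma03g04960 was the highest of the 114 in both libraries, at 261 RPKM in late and 145 in mid maturation, and was not called. Glyma20g23090 on chromosome 20, next after Glyma06g38160 in mid maturation, had 4.74 RPKM in late and 11.1 in mid maturation.

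**Figure D4:**
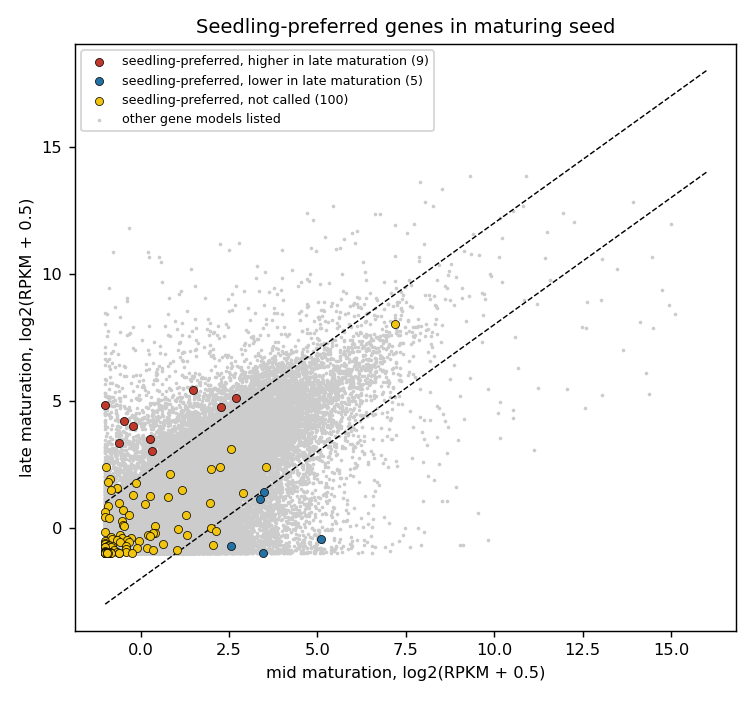
Late maturation (vertical) against mid maturation (horizontal), both as log2(RPKM + 0.5), for the 114 seedling-preferred genes listed in either library and all other gene models listed (grey). The dashed lines mark 4-fold, with 9 genes called higher (red) and 5 lower (blue), and most of the others (yellow) lie near the lower left corner.

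In identifier order, 36 of the 196 genes (18.4%) had another seedling-preferred gene within 5 gene models. The same share was 20.6% for the 859 dry-preferred, 15.3% for the 485 root-preferred and 18.1% for the 210 stem-preferred genes. It was 9.0% for the 379 floral-bud-preferred, 6.45% for the 93 early-maturation-preferred and 1.8% for the 109 leaf-preferred genes, and 0 for the 3 smallest sets. A larger set has more genes near one another by number alone, so shares of sets of unlike size cannot be ranked. No test of the difference was made. The 36 genes formed 15 runs, namely 11 of 2 genes, 3 of 3 and 1 of 5. In 5 of the 15 runs all members had the same second-highest library. Some runs would share one by the frequency of each second library alone. No such share was computed, so this count is not read as a result. Of consecutive gene models on a chromosome, 95.3% had numbers that differed by 10, so neighbours in the files are mostly neighbours in the numbering. Reads of near-identical copies may have been divided between neighbours in the counting, which could not be checked without sequences.

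The run on chromosome 2 spanned 5 gene models, and the gene models between and beside the members of each run are given to show where it ended. Glyma02g03280 had 931 CPM in the seedling, Glyma02g03290 242 and Glyma02g03320 156 CPM, and all 3 had stem as second library, at 144, 16.7 and 2.04 CPM. Between them, Glyma02g03300 had 0 counts in all 10 libraries, and Glyma02g03310 had 309 CPM in the seedling and 160 in stem. The flanking gene models, Glyma02g03270 and Glyma02g03330, had 0 counts in the seedling. The high levels thus ended within 1 gene model on both sides.

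The run on chromosome 6 had members that differed in pattern. Glyma06g45910 had 264 CPM in the seedling, 54.0 in root and at most 0.583 in the other 8. Glyma06g45940 had 196 CPM in the seedling, 48.2 in floral bud, 27.3 in root and 0 in dry seed. Glyma06g45950, with the ratio of 82.3 given above, had 3.52 CPM in root and 1.15 in floral bud. Between them, Glyma06g45920 had 0.269 CPM in the seedling and Glyma06g45930 had 10.2. Of the flanking gene models, Glyma06g45900 had 24.7 CPM in the seedling and 37.9 in dry seed, and Glyma06g45960 had 0 counts in the seedling. The 3 genes shared the seedling peak and not the second library.

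The run on chromosome 12 held Glyma12g36100 (584 CPM in the seedling), Glyma12g36110 (29.1) and Glyma12g36150 (126), whose second libraries were leaf, dry seed and floral bud. Of the 3 gene models between them, Glyma12g36120 had 0 counts in every library, Glyma12g36130 had 4.09 CPM in the seedling with a ratio of 8.25, and Glyma12g36140 had 45.3 CPM with a ratio of 3.59. Both thus leaned to the seedling and missed 1 threshold each. The flanking gene models, Glyma12g36090 and Glyma12g36160, had 11.8 and 14.9 CPM in the seedling, and floral bud was highest for both.

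The run on chromosome 18 was the longest and the most even. The 5 successive gene models Glyma18g32200, Glyma18g32210, Glyma18g32220, Glyma18g32230 and Glyma18g32240 had 13.0, 27.3, 19.4, 19.2 and 31.6 CPM in the seedling. Floral bud was second for all 5, at 2.54, 4.90, 3.44, 3.28 and 5.98 CPM. Their ratios lay between 5.10 and 5.85, closer together than in any other run of 3 or more. Next to them, Glyma18g32190 had 54.9 CPM in the seedling and 84.5 at early maturation, and Glyma18g32250 had 1.18 CPM in the seedling.

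**Figure D5:**
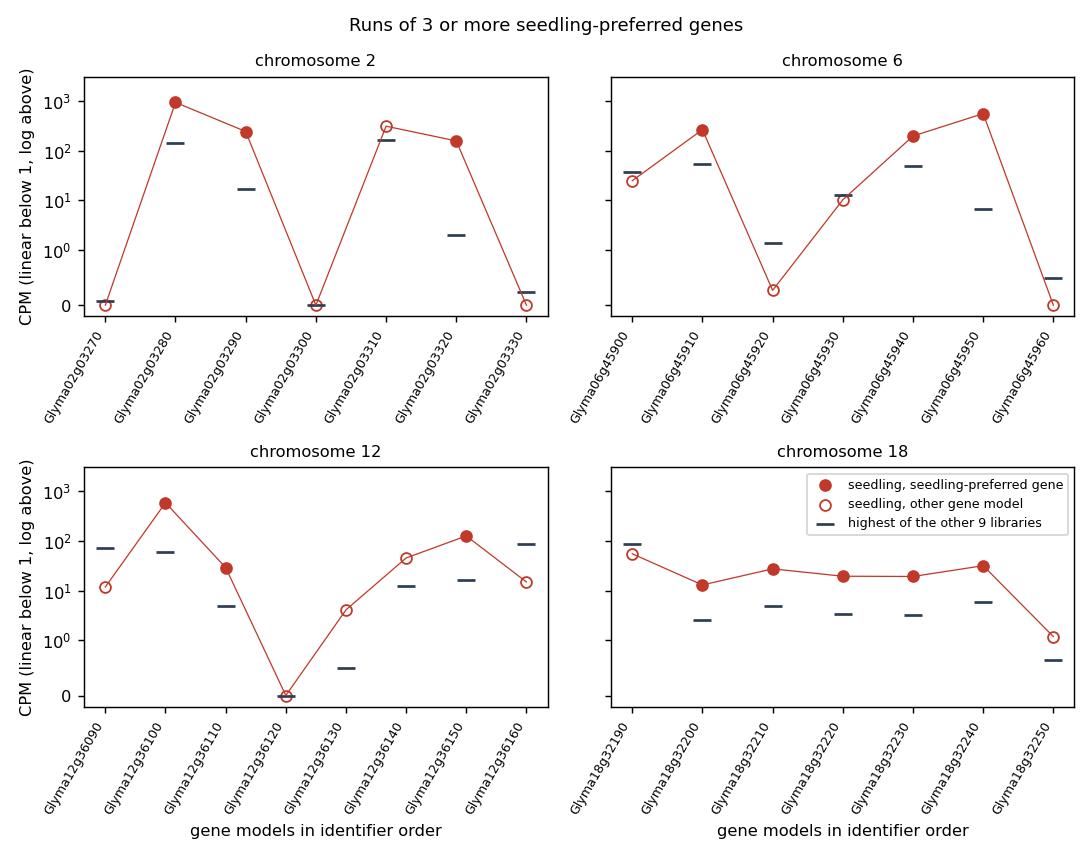
CPM (vertical, linear below 1 and log above) of gene models in identifier order for the 4 runs of 3 or more seedling-preferred genes, with 1 flanking gene model on each side. Filled circles are seedling values of seedling-preferred genes, open circles seedling values of other gene models, and dashes the highest of the other 9 libraries. In the chromosome 18 run all 5 circles sit at a like distance above their dashes.

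Of the 11 runs of 2 genes, 2 are given here, chosen after their values were seen. Glyma04g22110 and Glyma04g22120 on chromosome 4 had 290 and 391 CPM in the seedling, 21.4 and 18.5 in floral bud, 18.6 and 27.4 at early maturation, 15.9 and 20.9 in leaf and 0.297 and 0.843 in root. Floral bud was second for the first gene and early maturation for the other, with ratios of 13.5 and 14.3. Glyma07g37240 and Glyma07g37250 on chromosome 7 had 206 and 229 CPM in the seedling, 5.11 and 19.98 in root and at most 2.56 in the other 8 libraries. Root was second for both, with ratios of 40.4 and 11.5, so that this pair shared its second library and differed in ratio.

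Around the genes as a whole, 364 gene models were immediate neighbours without being seedling-preferred themselves, and 263 of these had at least 10 counts over the 10 libraries. The seedling was the highest library for 42 of the 263 (15.97%). It was highest for 3464 (7.27%) of all 47656 gene models outside the 196 with as many counts, the 263 among them. A ratio of at least 2 was found in 22 of the 263 (8.37%), against 1.36% of the 47656. The 10 most abundant genes had 18 such neighbours among the 364, taken here whatever their counts. None of the 18 had its highest value in the seedling. The 5 with 0 counts there, some of them without reads in any library, could not have had it. The 18 are too few for a comparison with the 263, and the highest seedling value among them was 50.8 CPM, in Glyma13g39590 next to Glyma13g39600.

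All 20 chromosomes held seedling-preferred genes. The counts ran from 5 of 2976 gene models on chromosome 20 to 15 of 3208 on chromosome 3 and 15 of 3372 on chromosome 15, or 0.168% to 0.468% of the gene models of a chromosome.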

How the data were processed

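Messenger RNA of 12 soybean libraries was sequenced. For 10 libraries the authors deposited raw counts of reads per gene model (66210 gene models), and Bowtie is the tool named for them per the submitters' processing notes. For mid and late maturation the authors deposited RPKM, with Bowtie and bedtools named in those notes. Tool versions, the genome build, the annotation release and how multiply matching reads were handled: not given in the sources used here. All members and lists were chosen with earlier results of these data known. CPM was counts scaled to equal library totals, and the inclusion rule stands in the report. Ratios carry exact (Clopper-Pearson) 95% intervals of the conditional binomial, and floors are 3 counts per library. Neither covers more than counting error, because each group has 1 library. PCR copies of a molecule are counted as separate reads, so the intervals may be too narrow even for that error. Neighbours were taken from identifier order, without coordinates. RPKM was compared as log2(RPKM + 0.5), which understates changes of low genes. Lists by function were not applied, because no identifier matched the table of 59048 RefSeq genes (assembly Glycine_max_v4.0). Named genes were, by rule, the 10 with most seedling CPM, the 10 with the largest ratios, those under 3 counts elsewhere, runs of 3 or more, the top gene of each second library, those at the thresholds, the 3 highest in each maturation library, up to 2 a direction in each contrast, the neighbours of the top 10 and the 2 left out. TMM factors came from edgeR 4.0.16 and size factors from DESeq2 1.42.0 in R 4.3.3. Python 3.11.15, numpy 2.4.6, pandas 2.3.3, scipy 1.17.1 and matplotlib 3.10.9 were used, and the rule was tested on simulated data.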

Additional observations from a re-analysis of the deposited data

How the results depend on the processing

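No paired analysis was possible because each group has 1 library. Of 81 alternative values, 57 stayed within 1.5 times the reported count or within the exact interval of the reported share. The number of seedling-preferred genes, 196, became 451 at a fold threshold of 2, 71 at 8, 74 with a minimum of 50 CPM and 322 with no minimum and the floor of 3 counts applied to the seedling as well. Without the root library it was 470 and without the leaf library 341. TMM gave 190 genes, 183 of them shared, and DESeq2 size factors 191, 182 of them shared. Relative to the seedling, TMM shifted the other libraries by -0.28 (floral bud) to 0.82 (dry) on the log2 scale. The share of seedling counts, 2.57%, was 4.98% at a fold of 2, 1.08% at 8, 2.60% with a minimum of 5 CPM, 2.29% with 50 CPM, 2.54% with TMM and 2.41% with DESeq2 size factors. The share with a like neighbour was 11.7% within 1 gene model. In late against mid maturation, 14 genes were higher with a minimum of 1 RPKM and 14 with none. In dry against early-maturation seed, 7 genes were higher with TMM, 10 with DESeq2 size factors, 5 at a fold of 2 and 6 with a minimum of 5 CPM. The 12 lower genes became 9 with TMM and 9 with DESeq2 size factors. At a fold of 2, 21 genes were higher in stem than in root, and 17 were higher and 6 lower in floral bud than in leaf. With a minimum of 5 CPM, 16 were higher and 4 lower in floral bud than in leaf. The cause was not tested.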
